A study of Mus musculus with 4 samples.

Results

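DNA replication and S phase genes were followed in mouse glial progenitors with and without the RNA-binding protein Quaking (gene Qk). The set comprises 36 genes chosen by symbol for their role at the replication fork, in its licensing or in the supply and packaging of DNA. All 36 were found among the 35857 genes listed, and all 36 passed the filter of a mean of at least 1 TPM (a gene's length-corrected share of all transcripts, scaled to 1000000) over the 4 libraries. The cells were neural stem cells of strain C57BL/6 from embryonic cerebral cortex, taken 24 hr into induced glial differentiation. There were 2 libraries of genotype Qk-/-, labelled Qk_KO, and 2 of wild type cells, labelled control. The labels name neither the Qk allele nor how it was deleted, and do not state that replicate libraries were separate cultures. The p-values therefore measure only the spread between these libraries. For the controls that spread may be technical, while the 2 Qk_KO libraries differed in sex-linked RNA, as given below.

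A dividing cell copies its genome once per cycle. In G1, origins marked by the origin recognition complex (ORC) are loaded with the MCM helicase by Cdc6 and Cdt1. At the start of S phase Cdc45 and the GINS complex switch the helicase on, and polymerases, the sliding clamp PCNA and its loader follow. Many of these genes are transcribed together by E2F transcription factors, which cyclin E and its kinase release from the retinoblastoma protein, and their messages peak around the G1/S boundary. In the embryonic cortex this programme is active in cycling progenitors and is shut down as cells leave the cycle. In bulk RNA, fewer cells in S phase and less RNA per cell cannot be told apart.

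The promoters show what part of the set has in common in sequence. A script searched the window from 250 bases before to 50 bases after each annotated start (RefSeq, GRCm38.p6) on both strands for E2F sites spelled TTTCCCGC, TTTCGCGC, TTTGCCGC or TTTGGCGC. It also searched for the CHR element of mitotic genes, spelled TTTGAA or TTCGAA, and for CCAAT, the letters bound by NF-Y. A promoter sequence was held for 29 of the 36 genes. E2F letters were in 12 of these 29 (41.4%), against 4.79% of the 10411 genes tested that had a promoter and 2.60% of all 27025 genes with one. They were in 4 of the 5 MCM promoters held, in those of Cdc6, Cdt1, Pola1, Pold1, Lig1, Uhrf1, Hells and Cdca7, and in neither of those held for E2f1 and Ccne1. CHR letters were in 4 of the 29 (13.8%), against 15.9% of the genes tested, and CCAAT in 16 (55.2%), against 43.4%. In 20 mitosis genes read beside them, 17 of which had a promoter sequence, 1 of 17 had E2F letters (5.88%) and 13 of 17 had CHR letters (76.5%). A match describes the letters only, not a bound site. A promoter without a match can still hold a site of another spelling, which was not searched.

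Sequences are given 5′ to 3′ for 3 genes with E2F letters, for Ccne1, which had none and behaved unlike most of the set, and for the checkpoint kinase gene Bub1b as the mitotic pattern. Capitals mark the E2F letters in the first 3, and the CHR letters in Bub1b. Mcm6 (chr1:128359656-128359955, minus strand) had 3 E2F matches, the first 2 overlapping, and Mcm5 (chr8:75109259-75109558, plus strand) had 2 overlapping ones. Cdca7 (chr2:72475969-72476268, plus strand) had 1, Ccne1 (chr7:38107441-38107740, minus strand) had 0, and Bub1b (chr2:118597961-118598260, plus strand) had 2 CHR matches.
Mcm6: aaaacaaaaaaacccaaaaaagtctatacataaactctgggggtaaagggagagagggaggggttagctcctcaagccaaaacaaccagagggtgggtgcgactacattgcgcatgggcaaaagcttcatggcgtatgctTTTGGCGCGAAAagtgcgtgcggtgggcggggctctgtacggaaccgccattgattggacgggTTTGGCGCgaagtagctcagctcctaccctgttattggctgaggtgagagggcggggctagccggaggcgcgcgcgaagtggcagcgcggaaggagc
Mcm5: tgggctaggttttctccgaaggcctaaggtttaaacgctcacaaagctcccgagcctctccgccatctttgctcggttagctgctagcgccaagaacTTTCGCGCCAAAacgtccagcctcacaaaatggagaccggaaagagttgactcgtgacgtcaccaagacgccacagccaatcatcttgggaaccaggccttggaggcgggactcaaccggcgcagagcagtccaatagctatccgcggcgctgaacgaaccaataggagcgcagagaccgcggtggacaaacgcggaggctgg
Cdca7: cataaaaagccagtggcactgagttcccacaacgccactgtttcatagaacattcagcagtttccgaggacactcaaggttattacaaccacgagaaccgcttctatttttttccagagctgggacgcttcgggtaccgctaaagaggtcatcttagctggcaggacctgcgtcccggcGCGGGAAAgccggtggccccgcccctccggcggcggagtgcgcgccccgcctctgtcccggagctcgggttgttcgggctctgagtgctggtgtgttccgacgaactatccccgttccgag
Ccne1: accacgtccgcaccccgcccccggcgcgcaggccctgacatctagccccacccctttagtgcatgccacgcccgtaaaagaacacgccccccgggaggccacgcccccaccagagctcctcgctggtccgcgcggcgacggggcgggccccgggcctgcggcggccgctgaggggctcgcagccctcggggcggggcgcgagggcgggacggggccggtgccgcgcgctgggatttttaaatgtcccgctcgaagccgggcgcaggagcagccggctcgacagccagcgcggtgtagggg
Bub1b: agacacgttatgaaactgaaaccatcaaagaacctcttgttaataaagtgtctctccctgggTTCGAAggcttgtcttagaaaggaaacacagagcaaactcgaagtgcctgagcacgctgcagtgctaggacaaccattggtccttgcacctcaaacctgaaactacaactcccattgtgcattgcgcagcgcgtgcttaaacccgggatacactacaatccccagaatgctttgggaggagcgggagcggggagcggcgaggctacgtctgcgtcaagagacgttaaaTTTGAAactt
In Mcm6 the matches began at positions -110, -106 and -47 counted from the first transcribed base as 0, and in Mcm5 at -153 and -149. The single match of Cdca7 began at -71.

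**Figure D1:**
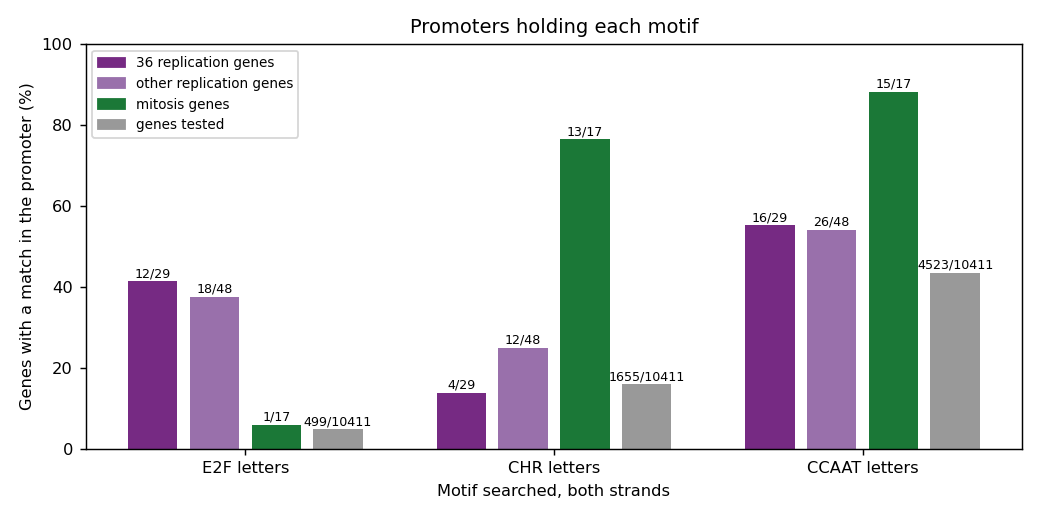
Share of genes whose promoter window held E2F, CHR or CCAAT letters (percent, vertical axis), for the 36 replication genes, 60 other replication genes, 20 mitosis genes and all genes tested. Numbers above the bars are genes with a match over genes with a promoter sequence, 12 of 29 replication genes and 1 of 17 mitosis genes for E2F.

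The libraries were checked before the genes were compared. The level of Qk was 36.1 TPM in Qk_KO replicate 1 and 43.7 TPM in Qk_KO replicate 2, against 208 and 215 TPM in control replicates 1 and 2, so each library lay on the side its label gives (log2 fold change -2.38, SE 0.12, limma adjusted p = 0.00708). Qk RNA thus remained at 0.17 and 0.21 times the control mean in Qk_KO replicates 1 and 2, and these data do not measure the protein. The limma call for Qk was lost when control replicate 1 (adjusted p = 0.0554) or control replicate 2 (0.0772) was omitted, and when low genes were kept (0.108). The Y-linked genes Eif2s3y, Ddx3y and Kdm5d were at 35.4, 19.1 and 14.3 TPM in Qk_KO replicate 1 and between 0 and 0.01 TPM in the other 3 libraries. Xist, which is transcribed from the inactive X chromosome, was at 0.04 TPM in Qk_KO replicate 1 and 62.5 TPM in Qk_KO replicate 2, against 62.2 and 57.6 TPM in control replicates 1 and 2. The Qk_KO group thus joined 1 library with Y-linked RNA to 1 that had Xist RNA, like both controls. In these genes Qk_KO replicate 1 therefore stood apart from the other 3 libraries. It also held more Dlx1 and Dlx2, homeobox genes of the ventral forebrain, at 36.7 and 76.0 TPM, whereas Qk_KO replicate 2 had 0.40 and 1.70 TPM, with 2.03 and 2.60 TPM in control replicate 1, and 0.37 and 2.32 TPM in control replicate 2. The part of these differences in what follows was not tested. TPM keeps no read depth, so the counting error behind each value is unknown.

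Replication gene RNA was highest in Qk_KO replicate 1, while Qk_KO replicate 2 was close to control replicate 1 and control replicate 2 was lowest. The 36 genes together made up 1742 and 1043 TPM in Qk_KO replicates 1 and 2, against 1031 and 791 TPM in control replicates 1 and 2, which is 0.174% and 0.104% of all transcripts in Qk_KO, against 0.103% and 0.0791% in control. The group means were 1393 ± 494 TPM in Qk_KO and 911 ± 169.9 TPM in control (SD, n = 2 each). Qk_KO replicate 1 thus held 1.91 times the control mean and Qk_KO replicate 2 held 1.14 times. Within the controls, replicate 1 held 1.304 times replicate 2.

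None of the 36 genes passed an adjusted p of 0.05 between Qk_KO and control (limma, Benjamini-Hochberg over all 13260 genes tested), where 3.24% of all genes tested did, 1.83% higher and 1.42% lower in Qk_KO. The adjusted p-values ran between 0.102 for Tyms and 0.958 for Ccne2. At an unadjusted p under 0.05, 11 of the 36 lay higher in Qk_KO, where 15.8% of all genes did, and 0 lower, where 12.6% did. Counted in either direction by limma, the 11 became 2 without Qk_KO replicate 1, 33 without Qk_KO replicate 2, 14 without control replicate 1 and 0 without control replicate 2. With all 4 libraries it was 6 under quantile normalization and 5 without limma's trend. The fitted log2 fold change was above 0 for 33 of the 36, where 54.4% of all genes tested had one above 0, with a median of 0.65 against 0.04 over all genes tested. Their standard errors had a median of 0.28 on the log2 scale, against 0.14 over all genes tested. The fitted values ran between -0.34 for Ccne1 and 0.97 for Chaf1b. Without Qk_KO replicate 1 the median of the 36 was 0.26, without Qk_KO replicate 2 it was 1.02, and in neither case did a gene of the set pass.

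**Figure D2:**
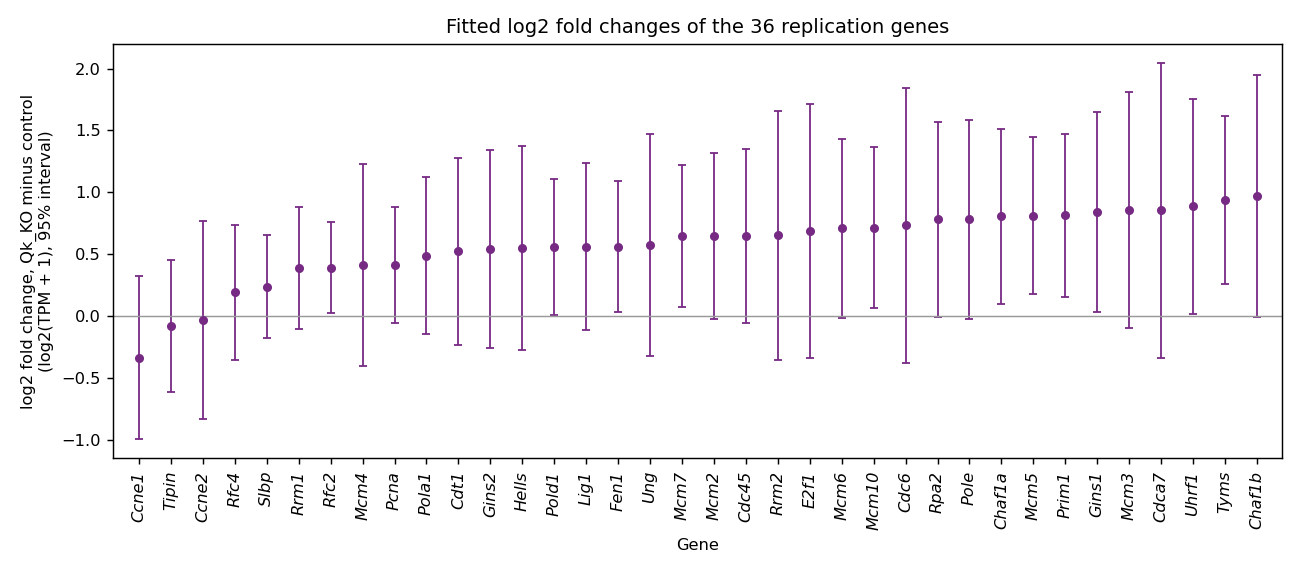
Fitted log2 fold change, Qk_KO minus control, on the log2(TPM + 1) scale (vertical axis) for each of the 36 genes, ordered by size. Points are limma estimates and bars their 95% intervals, 2 libraries a group. Of the 36 estimates 33 lie above 0, and none has an adjusted p under 0.05.

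The order of the libraries was nearly the same from gene to gene. Qk_KO replicate 1 was the highest of the 4 libraries for 35 of the 36, where this held for 28.6% of all genes tested, and Ccne1 was the exception. Control replicate 2 was the lowest for 32 of the 36, where this held for 35.9%, and control replicate 1 lay above control replicate 2 for all 36, where 53.4% did. Both traits were also found in all 20 mitosis genes, and in 40 and 49 of the 60 other replication genes, so they are not particular to the set. Qk_KO replicate 1 reached at least 1.5 times Qk_KO replicate 2 (both as TPM + 1) for 25 of the 36, where 4.28% of all genes did. It reached at least 1.5 times the control mean for 30, where 11.3% did, and Qk_KO replicate 2 reached it for 1, Tyms, where 9.18% did. Qk_KO replicate 2 was the highest library for 0 of the 36, where 27.7% of all genes had it highest. It lay above both controls for 20, where 45.4% did, between them for 12, and below both for 4 (Rfc4, Ccne1, Ccne2 and Tipin), where 36.4% did. Both Qk_KO libraries lay above both controls for 20 of the 36, where 33.6% of all genes did, and both lay below for 0, where 27.5% did. The full order of Qk_KO replicate 1, Qk_KO replicate 2, control replicate 1, control replicate 2 held for 20, where 12.7% of all genes had it. Genes that share cells and libraries are not independent, so these counts describe 4 libraries rather than 36 separate tests.

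**Figure D3:**
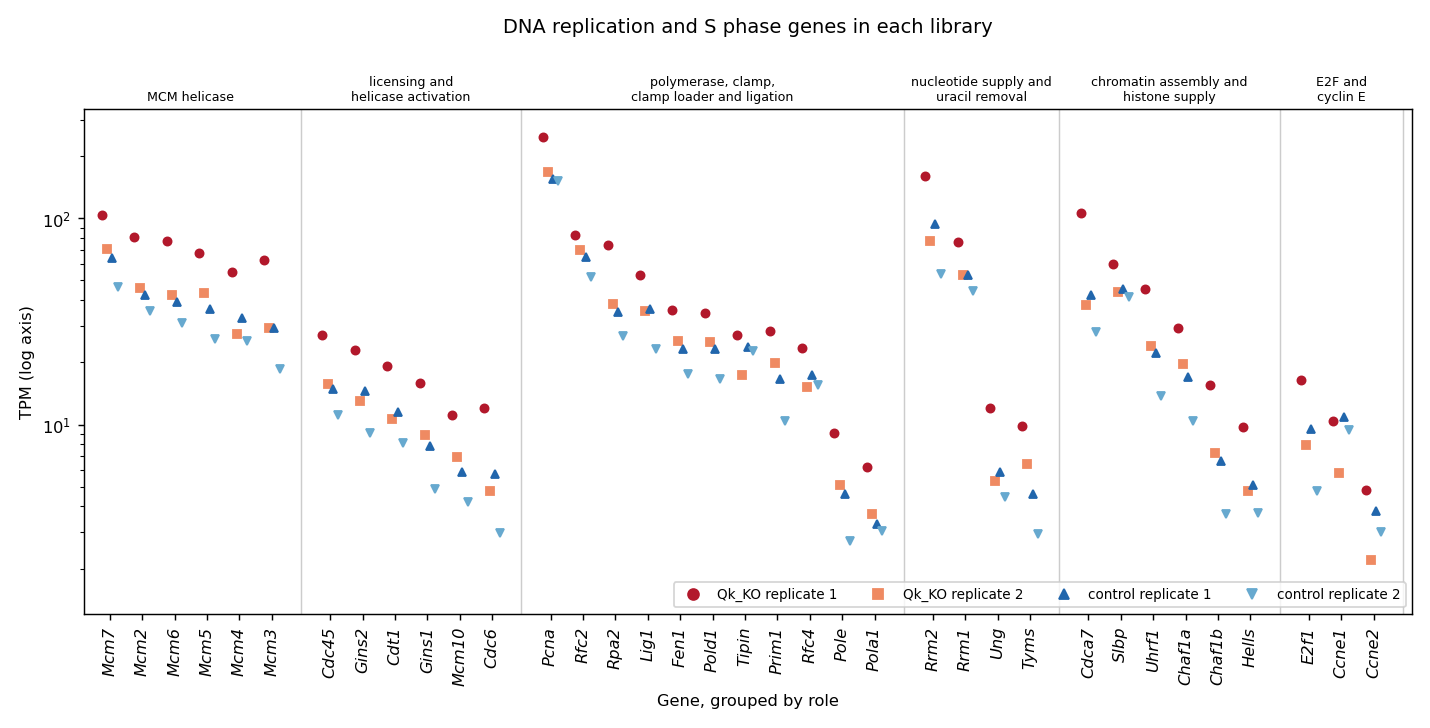
TPM on a log axis for each of the 36 genes in each of the 4 libraries, grouped by role. Each point is 1 library, with Qk_KO replicates as circles and squares and control replicates as triangles. The circles of Qk_KO replicate 1 are the highest points for 35 of 36 genes, while Qk_KO replicate 2 lies near control replicate 1 and is below both controls for Ccne1, Ccne2, Tipin and Rfc4.

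The MCM2 to MCM7 proteins form the ring-shaped helicase that is loaded onto origins in G1 and unwinds DNA in S phase. Its 6 genes together were at 449.7 and 261 TPM in Qk_KO replicates 1 and 2, against 244 and 184 TPM in control replicates 1 and 2. Mcm5 had 68.3 and 43.7 TPM in Qk_KO replicates 1 and 2, against 36.2 and 26.1 TPM in the controls (log2 fold change 0.81, 95% interval 0.18 to 1.44, limma adjusted p = 0.115). Both Qk_KO values of Mcm5 lay above both control values, and it had the smallest adjusted p of the 6. Mcm6 was at 78.1 and 42.7 TPM in the Qk_KO libraries, against 39.2 and 31.2 TPM in the controls. Mcm3 stood at 62.8 and 29.5 TPM in Qk_KO libraries, against 29.3 and 18.7 TPM in controls, so that Qk_KO replicate 2 and control replicate 1 were level. Mcm4 was the 1 gene of the ring whose groups overlapped, at 54.8 and 27.4 TPM in Qk_KO replicates 1 and 2, against 32.8 and 25.5 TPM in the controls, and its log2 fold change of 0.41 turned to -0.08 without Qk_KO replicate 1. Mcm2 (81.5 and 46.2 TPM in Qk_KO libraries, against 42.5 and 35.5 TPM in controls) and Mcm7 (104 and 71.3 TPM in Qk_KO libraries, against 64.2 and 46.6 TPM in controls) followed the pattern of Mcm6. The subunits assemble in equal numbers, and their RNA levels per length were within 1.90 and 2.60 times of each other in Qk_KO replicates 1 and 2, against 2.19 and 2.50 times in control replicates 1 and 2. Mcm7 was the highest of the 6 in every library.

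Origin licensing and helicase start-up depend on Cdc6 and Cdt1, which load the ring, and on Cdc45, the GINS subunits and Mcm10, which activate it. Cdc6 had 12 and 4.75 TPM in Qk_KO replicates 1 and 2, against 5.78 and 2.99 TPM in the controls. Cdt1 was at 19.2 and 10.7 TPM in Qk_KO libraries, against 11.5 and 8.10 TPM in controls. For both loading factors, and for Gins2 (22.9 and 13.1 TPM in Qk_KO libraries, against 14.6 and 9.13 TPM in controls), Qk_KO replicate 2 lay between the 2 controls. Cdc45 stood at 27.2 and 15.7 TPM in the Qk_KO libraries, against 14.9 and 11.1 TPM in the controls, Gins1 at 15.9 and 8.89 TPM in Qk_KO libraries, against 7.89 and 4.85 TPM in controls, and Mcm10 at 11.1 and 6.98 TPM in Qk_KO libraries, against 5.86 and 4.21 TPM in controls. These 3 had both Qk_KO values above both controls, with fitted log2 fold changes of 0.65, 0.84 and 0.71 and limma adjusted p of 0.202, 0.163 and 0.148.

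At the fork, Pcna encodes the sliding clamp that tethers the polymerases, and it was the most abundant gene of the set. Its level was 249.96 and 169 TPM in Qk_KO replicates 1 and 2, against 156 and 152 TPM in control replicates 1 and 2. The 2 control values differed by a factor of 1.03, the closest pair among the 36 genes, and the Qk_KO values by a factor of 1.48. Rpa2, a subunit of the single-strand binding protein RPA, was at 74.2 and 38.4 TPM in the Qk_KO libraries, against 35.2 and 26.8 TPM in the controls. Prim1, the primase that makes RNA primers, was at 28.5 and 20.0 TPM in Qk_KO libraries, against 16.6 and 10.4 TPM in controls (log2 fold change 0.81, limma adjusted p = 0.124). Pola1, its X-linked polymerase partner, was at 6.25 TPM in Qk_KO replicate 1, the library with Y-linked RNA, and 3.68 TPM in Qk_KO replicate 2, against 3.29 and 3.03 TPM in the controls. Pole and Pold1, the catalytic subunits of the leading and lagging strand polymerases, were at 9.12 and 5.08 TPM in Qk_KO libraries, against 4.59 and 2.73 TPM in controls, and at 34.7 and 25.1 TPM in Qk_KO libraries, against 23.3 and 16.7 TPM in controls. Fen1, the flap nuclease (35.9 and 25.5 TPM in Qk_KO libraries, against 23.2 and 17.5 TPM in controls), had its groups apart, while Lig1, which seals Okazaki fragments (53.3 and 35.5 TPM in Qk_KO libraries, against 36.4 and 23.4 TPM in controls), did not.

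The clamp loader genes of the set, Rfc2 and Rfc4, and Tipin had fitted changes between -0.08 for Tipin and 0.39 for Rfc2. The loader genes Rfc1, Rfc3 and Rfc5, outside the set, had log2 fold changes of -0.05, 0.36 and 0.47. Rfc2 had 83.3 and 70.5 TPM in Qk_KO replicates 1 and 2, against 64.9 and 52.3 TPM in the controls, and had the smallest standard error of the set (log2 fold change 0.39, SE 0.15, limma adjusted p = 0.158). Rfc4 was at 23.6 and 15.2 TPM in Qk_KO libraries, against 17.4 and 15.6 TPM in controls. Tipin, a fork protection factor that partners Timeless, was at 27.3 and 17.5 TPM in Qk_KO libraries, against 23.7 and 22.7 TPM in controls. For Rfc4 and Tipin the 2 Qk_KO values lay on opposite sides of both control values, and the sign of the fitted change depended on which Qk_KO library was left out, at -0.11 for Rfc4 without replicate 1 and 0.23 for Tipin without replicate 2.

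Deoxynucleotides are made by ribonucleotide reductase, whose regulatory partner Rrm2 is cell cycle controlled while Rrm1 is more stable, and by thymidylate synthase (Tyms). Rrm2 had 162 and 77.9 TPM in Qk_KO replicates 1 and 2, against 94.1 and 53.6 TPM in the controls, and Rrm1 had 77.0 and 53.2 TPM in Qk_KO libraries, against 53.2 and 44.5 TPM in controls. In both, Qk_KO replicate 2 lay between the controls. Tyms had the smallest adjusted p of the set, at 9.87 and 6.40 TPM in the Qk_KO libraries, against 4.58 and 2.93 TPM in the controls (log2 fold change 0.94, 95% interval 0.26 to 1.62, limma adjusted p = 0.102). It was also the gene with the highest ratio of Qk_KO replicate 2 to the control mean, at 1.70. Ung, which removes uracil from DNA, was at 12.1 and 5.33 TPM in Qk_KO libraries, against 5.88 and 4.43 TPM in controls.

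Behind the fork, CAF-1 (subunits Chaf1a and Chaf1b) deposits new histones, Uhrf1 brings the maintenance DNA methyltransferase to hemimethylated sites, and Hells is a chromatin remodeller that works with Cdca7. Chaf1b had the largest fitted change of the set, at 15.5 and 7.30 TPM in Qk_KO replicates 1 and 2, against 6.63 and 3.67 TPM in the controls (log2 fold change 0.97, SE 0.39, limma adjusted p = 0.178). Chaf1a was at 29.4 and 19.7 TPM in Qk_KO libraries, against 17.1 and 10.4 TPM in controls, and Uhrf1 at 45.6 and 24.1 TPM in Qk_KO libraries, against 22.3 and 13.7 TPM in controls. All 3 had both Qk_KO values above both controls. Cdca7, which also responds to Notch signalling in blood stem cell development, showed the widest gap within a group, at 106 TPM in Qk_KO replicate 1 and 38.1 TPM in Qk_KO replicate 2, a factor of 2.78, against 42.7 and 28.3 TPM in the controls. Hells was at 9.74 and 4.74 TPM in Qk_KO libraries, against 5.11 and 3.70 TPM in controls. Slbp, the protein that binds the stem-loop of histone messages, was at 60.0 and 44.1 TPM in Qk_KO libraries, against 45.6 and 41.5 TPM in controls, so that 3 of its 4 values lay close together.

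The genes at the top of the E2F pathway did not share 1 pattern. E2f1, an activator of the whole programme, had 16.4 and 7.99 TPM in Qk_KO replicates 1 and 2, against 9.53 and 4.75 TPM in the controls, and the controls differed by a factor of 2.01, the largest such gap in the set. Ccne1, a cyclin E gene, was at 10.4 and 5.84 TPM in the Qk_KO libraries, against 10.9 and 9.45 TPM in the controls (log2 fold change -0.34, 95% interval -0.997 to 0.32, limma adjusted p = 0.441). Its paralog Ccne2 was at 4.79 and 2.19 TPM in Qk_KO libraries, against 3.82 and 3.01 TPM in controls (log2 fold change -0.03, limma adjusted p = 0.958). Qk_KO replicate 2 was the lowest library for both cyclin E genes, as it was for Rfc4 and Tipin, and in Qk_KO replicate 1 Ccne1 was the 1 gene of the 36 below a control value. The fitted sign turned to 0.03 for Ccne1 and 0.40 for Ccne2 without Qk_KO replicate 2, and to 0.10 for Ccne2 without control replicate 1.

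A list of 60 other replication and G1/S genes was read alongside. None passed an adjusted p of 0.05 in limma, 43 of the 60 had a log2 fold change above 0 (54.4% of all genes tested), and their median was 0.32, against 0.04 over all genes tested. At an unadjusted p under 0.05, 13 of the 60 were higher, where 15.8% of all genes tested were, and 2 lower, where 12.6% were. Qk_KO replicate 1 was the highest library for 47 of the 60, where 28.6% of all genes had it highest. Of the 6 most abundant, Dnmt1, the maintenance DNA methyltransferase, had 74.0 and 67.9 TPM in Qk_KO replicates 1 and 2, against 59.0 and 49.4 TPM in the controls, with a limma adjusted p of 0.12. Tfdp1, the E2F partner, was at 106 and 96.9 TPM in Qk_KO libraries, against 109.6 and 106 TPM in controls, and Rpa1, the large RPA subunit, at 90.6 and 76.4 TPM in Qk_KO libraries, against 71.0 and 70.8 TPM in controls. Pold2, Nasp and Pole3 had log2 fold changes of -0.10, 0.24 and -0.09.

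Some genes of this list, named after their values were seen, are set here beside the helicase genes. Subunits 2 to 6 of the ORC, the complex that marks origins, all had log2 fold changes below 0, with a median of -0.29. Over all genes tested 54.4% had one above 0, and the median was 0.04. Qk_KO replicate 2 lay below both controls for all 5 subunits, where 36.4% of all genes tested had it below both. Orc4 had 13.6 and 13.1 TPM in Qk_KO replicates 1 and 2, against 17.8 and 22.1 TPM in the controls (limma adjusted p = 0.0929), and Orc2 had 19.9 and 20.6 TPM in Qk_KO libraries, against 25.0 and 27.2 TPM in controls (0.123). The 2 Qk_KO libraries were close in both genes. Orc1, the subunit whose gene is an E2F target, was at 2.73 and 1.10 TPM in Qk_KO libraries, against 1.26 and 1.03 TPM in controls. Its log2 fold change was 0.39 with both Qk_KO libraries and -0.03 with Qk_KO replicate 2 alone. Ccna2, the cyclin of S and G2, was nearly as high in Qk_KO replicate 2 as in replicate 1, at 39.2 and 33.6 TPM, against 19.1 and 11.7 TPM in the controls (log2 fold change 1.22, limma adjusted p = 0.0536). Ccna2 passed limma when the filter was set at 5 TPM (adjusted p = 0.0465). Asf1b, Tk1 and E2f2 had log2 fold changes of 1.24, 1.23 and 1.17. Their Qk_KO replicate 2 values were 2.03, 1.62 and 2.15 times the control mean, against 2.17 for Ccna2. Qk_KO replicate 2 reached at least 1.5 times the control mean (TPM + 1) for 5 of the 60, where 9.18% of all genes did. It lay below both controls for 19 of the 60, where 36.4% did. Cdk2, the kinase partner of cyclins E and A, was at 48.2 and 25.6 TPM in Qk_KO libraries, against 20.7 and 19.4 TPM in controls. Its differences from the control mean in Qk_KO replicates 1 and 2 were 1.22 and 0.34 (log2 of TPM + 1). The 6 MCM helicase genes had medians of 1.09 and 0.30, so Cdk2 lay near them.

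Mitosis genes, which act after S phase, were high in both Qk_KO libraries. Of 20 mitosis genes 4 rose in Qk_KO (adjusted p under 0.05 in limma, where 1.83% of all genes did), and both Qk_KO libraries lay above both controls for all 20, where 33.6% of all genes tested did. Ccnb1, the mitotic cyclin, had 51.3 and 54.9 TPM in Qk_KO replicates 1 and 2, against 29.3 and 22.8 TPM in the controls (log2 fold change 1.01, limma adjusted p = 0.0426). Ccnb2, Bub1b and Kif20a also rose, by 1.04, 1.08 and 1.16, while Cdk1 (36.5 and 30.6 TPM in Qk_KO libraries, against 26.4 and 20.0 TPM in controls) and Top2a (47.4 and 36 TPM in Qk_KO libraries, against 30.2 and 20.1 TPM in controls) did not pass. All 4 calls were lost when any 1 library was left out, with no filter and without limma's trend. Taken library by library, the median difference of the 20 mitosis genes from the control mean was 0.96 in Qk_KO replicate 1 and 0.97 in Qk_KO replicate 2 (log2 of TPM + 1), and that of the 36 replication genes was 1.02 and 0.26. Over all genes tested the medians were 0.03 and 0.04. With 1 library on each side, this contrast between the gene groups has no test.

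**Figure D4:**
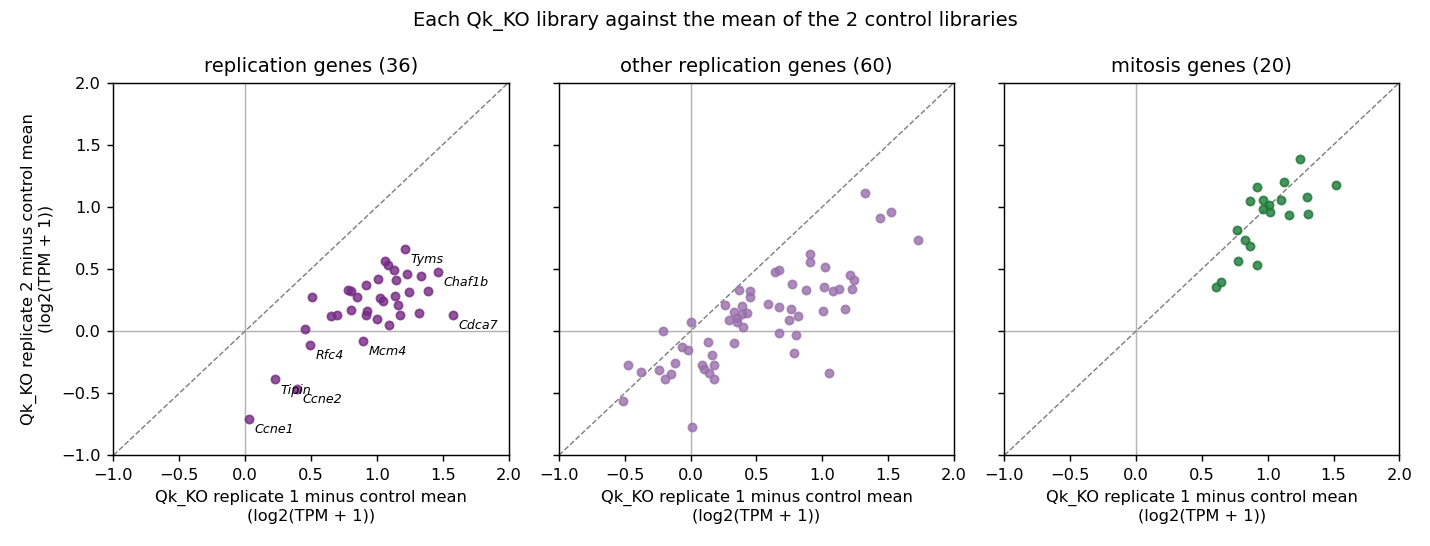
Difference of Qk_KO replicate 1 (horizontal axis) and Qk_KO replicate 2 (vertical axis) from the control mean, in log2(TPM + 1), for the 36 replication genes, 60 other replication genes and 20 mitosis genes. Each point is a gene and the dashed line marks equal differences. The replication genes all lie below the line, with medians of 1.02 and 0.26, and the mitosis genes lie along it, with medians of 0.96 and 0.97.

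Markers of cell types were summed in each library beside these values. The 10 neural progenitor and glial markers made up 6807 and 6743 TPM in Qk_KO replicates 1 and 2, against 6833 and 6717 TPM in control replicates 1 and 2, with 2 of 10 higher and 2 lower by limma, where 1.83% of all genes tested were higher and 1.42% lower. Most of that sum was Vim and Fabp7, which moved in opposite directions in Qk_KO replicate 1. Vim was at 3373 and 2392 TPM in Qk_KO libraries, against 2370 and 2346 TPM in controls. Fabp7 was at 2354 and 3144 TPM in Qk_KO libraries, against 3010 and 2957 TPM in controls. The 2 higher were Pax6 and Aqp4, and the 2 lower were Slc1a3 and Ptprz1. The 11 neuron markers made up 925 and 730.0 TPM in Qk_KO libraries, against 518 and 326 TPM in controls, with 2 of 11 higher and 0 lower. Tubb3, a neuronal tubulin, made up 512 and 383 TPM of that sum in the Qk_KO libraries, against 275 and 126 TPM in the controls. Dlx1 and Dlx2, given above, are also counted in that sum. They were at 36.7 and 76.0 TPM in Qk_KO replicate 1, and at 0.40 and 1.70 TPM in Qk_KO replicate 2. Gene by gene, Qk_KO replicate 1 was the highest library for 4 of the 11 and Qk_KO replicate 2 for 6, and the median difference of Qk_KO replicate 1 minus Qk_KO replicate 2 was -0.24 (log2 of TPM + 1), against 0.75 for the 36 replication genes. Oligodendrocyte markers (7 genes, Mog at 0 in every library) made up 81.5 and 108 TPM in Qk_KO libraries, against 160.5 and 208 TPM in controls, with 1 of 5 tested lower. Cnp made up 67.9 and 74.9 TPM of that sum in Qk_KO libraries, against 75.1 and 79.4 TPM in controls. Microglia and macrophage markers (10 genes, P2ry12 between 0 and 0.04 TPM) made up 17.2 and 13.8 TPM in Qk_KO libraries, against 33.9 and 29.6 TPM in controls, with 0 of 5 tested called. Endothelial and pericyte markers (8 genes, Cldn5 between 0 and 0.05 TPM) made up 25.8 and 25.5 TPM in Qk_KO libraries, against 35.3 and 29.5 TPM in controls, with 0 of 4 tested called. Col1a1 made up 16.1 and 15.9 TPM of that sum in Qk_KO libraries, against 26.6 and 20.4 TPM in controls. The part of these cell types in the replication gene values was not tested.

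Position in the genome was compared for the set, using GENCODE M21 on GRCm38, where all 36 genes had an entry. For 4 of them a protein-coding gene on the opposite strand started upstream within 1000 bases, or overlapped the start by at most 200 bases. Starts with a longer overlap were not counted. These divergent neighbours were Prkdc beside Mcm4, Pxmp2 beside Pole, Tmem258 beside Fen1 and Abhd12 beside Gins1. None of the 4 passed in limma, with log2 fold changes of 0.05, 0.19, 0.12 and -0.17. Prkdc had 4.06 and 3.34 TPM in Qk_KO replicates 1 and 2, against 3.75 and 3.31 TPM in the controls. In 11 of the 36 genes an exon overlapped a gene on the opposite strand, among them Chaf1a with Ubxn6 and Gins2 with Gse1. The strand setting is not given in the sources used here, so reads in such stretches cannot be assigned with certainty. The genes involved are Ccne2, Cdc45, Chaf1a, Fen1, Gins2, Lig1, Mcm7, Pole, Rfc2, Rfc4 and Slbp. No share over all genes was counted beside the 4 and the 11.

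Within the set, genes with and without E2F letters were set side by side. The 12 genes with a match had a median log2 fold change of 0.68 and ran between 0.49 and 0.89, and the 17 with a promoter and no match had a median of 0.65 and ran between -0.34 and 0.97. In Qk_KO replicate 1 the medians relative to the control mean were 1.07 and 1.05, and in Qk_KO replicate 2 they were 0.28 and 0.24. The medians of genes with and without the letters thus lay close together in each library.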

How the data were processed

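Messenger RNA selected for poly(A) of 2 Qk_KO and 2 control libraries was read on an Ion Proton instrument, per the labels' protocols. For each library the authors deposited a table of TPM, each summing to 1000000 within rounding. Per the submitters' processing notes, the tools were RSEM 1.3.0 and STAR 2.4.1d and the builds GRCm38.p4 and mm10. The sources used here do not give depth, annotation or strandedness, so precision rests on the spread between libraries. TPM is a share, so a rise of abundant genes lowers others.

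Values were taken as log2(TPM + 1), which understates changes of low genes. Genes averaging 1 TPM or more (13260) were fitted with limma 3.58.1 (trend, R 4.3.3), with two-sided p-values adjusted by Benjamini-Hochberg across these genes and called under 0.05. An exact permutation test of 2 against 2 libraries cannot go below 33.3%. The fit was tested on simulated data with independent genes and log2 changes of 1, 1.5, 2 and 3. At a change of 1 it called 72% of the changed genes, and 15 unchanged genes were called. Changes as small as those fitted for the 36 genes were not simulated, so this says nothing of their calls. The genes and lists were chosen with earlier results of these data known. Named genes are Qk, the 36 genes, of the 60 other replication genes any called and the 6 most abundant, and of the 20 mitosis genes Ccnb1, Cdk1, Top2a and any called. Tables were read with Python 3.11.15. Sequences came from RefSeq (GRCm38.p6).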

Additional observations from a re-analysis of the deposited data

How the results depend on the processing

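The count of replication genes called stayed at 0 under pseudocounts of 0.1 and 0.5, no filter (limma found 3 of the 36 at an unadjusted p under 0.05), a filter at 5 TPM (which left 34 of them), quantile normalization, scaling by median ratios, robust limma, limma lacking the trend, and without each library in turn, against 11 with an unadjusted p under 0.05 in the fit reported, 9 under median ratios, 6 under quantile normalization and 5 lacking the trend. Their median log2 fold change ran between 0.59 and 0.66 under these settings other than leave-one-out, and between 0.26 and 1.02 when 1 library was left out. Over the fits that leave out 1 library, the sign turned for 7 of the genes that the naming rule selects; genes named outside it, such as Orc1, were not counted here. Without Qk_KO replicate 1 and without Qk_KO replicate 2, the log2 fold change was -0.077 and 0.90 for Mcm4, -0.11 and 0.49 for Rfc4, -0.71 and 0.031 for Ccne1, -0.46 and 0.40 for Ccne2, -0.39 and 0.23 for Tipin, 0.000399 and -0.21 for Pold2, and -0.27 and 0.090 for Pole3. Without control replicate 1 it was 0.10 for Ccne2. The cause was not tested.

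The 2 groups share replicate numbers. Deviations of same-numbered libraries correlated at r = 0.114 across all genes tested. Replicate 1 lay above replicate 2 for all 36 replication genes in both groups, with medians of 0.75 in Qk_KO and 0.43 in control. Over the 13260 genes tested it did so for 6447 and 7080. With 2 pairs and no label that ties the numbers to a shared origin, whether the libraries are paired is not known. With the replicate number as a block, 16 of the 36 replication genes, 7 of the 60 other replication genes and 17 of the 20 mitosis genes passed in limma, with 1278 genes in all, 753 higher and 525 lower.

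Over all genes tested, 430 were called, 242 higher and 188 lower. With a pseudocount of 0.1 it was 584, 337 higher and 247 lower. The count was 0 with no filter, 0 higher and 0 lower, with 4327 at an unadjusted p under 0.05 by limma. It was 649 under the filter at 5 TPM (304 lower), 41 without a trend (23 higher and 18 lower), and between 4 and 148 when 1 library was left out, with 0 to 88 higher and 4 to 60 lower. Of the other replication genes, 1 passed under the filter at 5 TPM, Ccna2, and 0 to 1 in leave-one-out, the 1 being Cdk2 without Qk_KO replicate 2. Of the mitosis genes, in alternatives chosen after seeing the data, 7 passed with a pseudocount of 0.1, 8 under the filter at 5 TPM, 0 with no filter, 0 without a trend and 0 to 0 in leave-one-out. Also chosen after seeing the data, both scalings left 19 replication genes with both Qk_KO libraries above both controls and 35 with Qk_KO replicate 1 highest, against 20 and 35 as deposited.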
